A study of Homo sapiens with 6 samples.

Results

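The genes described here write cytosine methylation into DNA, copy it at replication, or take it off again, together with the enzymes that supply a substrate for its removal. They are the DNA methyltransferases DNMT1, DNMT3A and DNMT3B, the replication cofactor UHRF1, the TET dioxygenases TET1, TET2 and TET3, the glycosylase TDG, and the isocitrate dehydrogenases IDH1 and IDH2. Every probe set that the platform annotation pairs with exactly 1 gene symbol, that of 1 of these 10 genes, was taken as a member, without regard to its values. The rule gave 21 of the 54613 probe sets tested and 10 of the 19775 genes. DNMT3A, TET2, TET3 and IDH1 had 3 probe sets each, TET1, TDG and IDH2 had 2 each, and DNMT1, DNMT3B and UHRF1 had 1 each.

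RNA came from K562, a human erythroleukemia cell line established from chronic myeloid leukemia, into which a tet-on construct (pTRE-ERG) had been stably introduced so that doxycycline (DOX) switches on ERG, an ETS-family transcription factor. There were 3 clones, CL4, CL9 and CL46, and each was hybridized once after 8 days of 1 µg/ml DOX (labelled ERG-induced) and once without DOX (labelled non-induced), on 6 Affymetrix U133 Plus 2.0 arrays in all. The time is that of the labels, and a legend of the study gives a shorter one. Both groups carry the construct, each line is 1 clone, and every culture labelled ERG-induced and no other received DOX, so what ERG did and what DOX did cannot be told apart. The comparison asks which transcripts differ between cultures with DOX, given to switch on ERG, and cultures without it.

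In mammalian cells DNMT3A and DNMT3B place methyl groups on unmethylated CpG sites, and DNMT1, brought by UHRF1 to newly copied DNA, restores them on the daughter strand. The TET enzymes oxidize 5-methylcytosine stepwise, and TDG cuts out the more oxidized forms so that base excision repair can put back an unmodified cytosine. TET enzymes need 2-oxoglutarate, which IDH1 makes in the cytosol and IDH2 in mitochondria, and the mutant forms of both make 2-hydroxyglutarate, which inhibits TET enzymes. DNMT3A, TET2, IDH1 and IDH2 are among the genes recurrently mutated in human myeloid leukemia.

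The values are linear ratios, each probe set on each array over its own median across the 6 arrays, so 1 means the middle of the 6. They hold no brightness, so levels of different probe sets cannot be set against each other, whether a transcript was above background is unknown, and erythroid identity could not be checked by level. The number of arrays limits the precision. The median ratio of an array was 0.898 to 0.998 on the 3 labelled ERG-induced and 0.99 to 1.07 on the 3 labelled non-induced. The introduced gene gave no check of the labels: the mean log2 ratio of ERG was -0.50 ± 0.57 with DOX and 0.27 ± 1.09 without it (SD, n = 3 each), a log2 difference of -0.76 (SE 0.63, limma adjusted p = 0.671), and the 4 ERG probe sets gave log2 differences between -1.93 and 0.72. Whether these probe sets can detect transcripts of the construct is not known here, so every direction below rests on the array labels. The 3 probe sets for 18S ribosomal RNA, used as a sign of RNA composition, were higher on the log2 scale by 1.21 (CL4), 0.59 (CL9) and 0.82 (CL46) (mean 0.87 ± 0.32 SD, exact permutation test of the 6 arrays, two-sided p = 0.1, the smallest that 3 against 3 allows). Their part in the results below was not tested.

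A probe set or gene was called under-expressed or over-expressed where limma gave at least a 2-fold change with p under 0.05 before adjustment, the thresholds of the study, and the p adjusted over all features is printed. At an adjusted p under 0.05 limma called 0 probe sets (lowest 0.086, 7180 at an unadjusted p under 0.05 where 2731 are expected by chance) and 0 genes (lowest 0.101, 2544 at an unadjusted p under 0.05 where 989 are expected by chance). No member therefore passed a correction for the number of features tested, and each call below stands at the study's thresholds only. Nothing in the labels says that the clones were grown as separate experiments beyond being separate lines, and the p-values measure the spread between them. In cells measured in bulk, fewer cells carrying a transcript and less of it per cell cannot be told apart.

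Promoter sequence is shown for the 3 genes with a called probe set, TET1, TET2 and TDG, and for IDH2, whose groups lay apart in the other direction without a call. Each is the 250 bases before the first start that RefSeq lists for the gene, on the gene's strand, 5′ to 3′, from the GRCh38.p14 table. Capitals mark the ETS core that ERG shares with its family, GGAA, or TTCC where the core lies on the other strand. The windows are chr10:68560087-68560336 (plus strand) for TET1, chr4:105145625-105145874 (plus strand) for TET2, chr12:103965622-103965871 (plus strand) for TDG and chr15:90100622-90100871 (minus strand) for IDH2.
TET1: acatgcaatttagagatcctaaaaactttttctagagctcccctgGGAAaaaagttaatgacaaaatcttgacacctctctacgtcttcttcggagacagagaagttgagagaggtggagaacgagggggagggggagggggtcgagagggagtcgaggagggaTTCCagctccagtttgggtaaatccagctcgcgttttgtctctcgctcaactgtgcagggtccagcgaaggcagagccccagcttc
TET2: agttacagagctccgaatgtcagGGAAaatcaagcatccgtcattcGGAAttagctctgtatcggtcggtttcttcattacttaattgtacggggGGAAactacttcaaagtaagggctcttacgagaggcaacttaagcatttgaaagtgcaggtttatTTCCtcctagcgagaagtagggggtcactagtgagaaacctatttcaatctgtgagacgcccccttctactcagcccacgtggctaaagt
TDG: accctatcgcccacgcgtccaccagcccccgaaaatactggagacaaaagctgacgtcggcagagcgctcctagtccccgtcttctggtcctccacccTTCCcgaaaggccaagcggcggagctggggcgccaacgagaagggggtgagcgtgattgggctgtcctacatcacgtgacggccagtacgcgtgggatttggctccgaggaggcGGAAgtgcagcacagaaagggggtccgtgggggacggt
IDH2: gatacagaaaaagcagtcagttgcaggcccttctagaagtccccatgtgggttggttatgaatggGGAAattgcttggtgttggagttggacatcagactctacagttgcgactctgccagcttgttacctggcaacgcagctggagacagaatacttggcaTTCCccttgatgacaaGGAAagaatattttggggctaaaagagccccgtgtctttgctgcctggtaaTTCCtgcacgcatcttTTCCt

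The core occurred 2 times in this TET1 window, 4 times in TET2, 2 times in TDG and 5 times in IDH2. A core this short is common: 92.7% of all 35116 promoter windows of 250 bases hold at least 1 on either strand (median 3), against 19 of the 22 windows of the 10 members (86.4%, median 2). The longer ETS site CCGGAAGT, searched on both strands, was in 0 of the 22 member windows and in 3.42% of all windows. It contains the core, so the searches overlap. Member windows held a median of 21 CG pairs (range 3 to 41) and all windows a median of 11, with 9 in the TET1 window shown, 10 in TET2, 22 in TDG and 4 in IDH2. Of the 22 member windows 6 are of DNMT3A, some of them overlapping, while DNMT1, DNMT3B, TDG and IDH2 have 1 each, so the member figures weigh DNMT3A most. Start sites differ within a gene: the other TET2 window that RefSeq lists holds 0 cores and 34 CG pairs. These matches describe the letters and no binding was measured.

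The called probe sets among the members were those of TET1, TET2 and TDG. TET3, also an eraser, had log2 differences above 0 with all its probe sets, and a difference between erasers and writers was not tested. TET1 and TET2 were called under-expressed as genes, by 2.55-fold and 2.84-fold, and TDG had 1 called probe set of 2, whereas no probe set of a methyltransferase, UHRF1, TET3, IDH1 or IDH2 was called. In all, 4 of the 21 member probe sets (19%) were called under-expressed, where 8.16% of all probe sets were, and 0 were called over-expressed, where 2.82% of all probe sets were. Both IDH2 probe sets were higher with an unadjusted p under 0.05 in limma but less than a 2-fold change. By gene, 2 of 10 were called under-expressed and 0 over-expressed, where 6.32% and 3.12% of all genes were. The median log2 difference was -0.17 over the member probe sets and -0.09 over all probe sets, and -0.09 over the member genes and -0.03 over all genes. The 2 groups did not overlap in 7 member probe sets that were lower (33.3%) and in 2 that were higher (9.52%), where 15.1% and 7.14% of all probe sets showed the same. The count called lower changed when a clone was left out. Without CL9 or without CL46, 1 of the 21 member probe sets was called lower, where 6.63% and 5.71% of all probe sets were. Without CL4 it was 4, where 7.66% of all probe sets were. Each such run leaves 2 arrays in each group, so the clone's values and the smaller groups cannot be told apart. With 21 probe sets of 10 genes, in which probe sets of 1 gene share its transcripts, these shares rest on few genes.

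The array scaling moved the balance over all features. The 1250 genes called lower and 617 called higher became 999 and 749 when each array was centred on its median, and 923 and 848 with quantile normalization, and the median over all genes was -0.03 as reported, 0.08 centred and 0.11 with quantile normalization. For probe sets, the 4454 called lower and 1539 called higher became 3484 and 2036 with quantile normalization. TET1 (-1.24) and TET2 (-1.40 centred, -1.35 with quantile normalization) kept their calls under both.

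**Figure D1:**
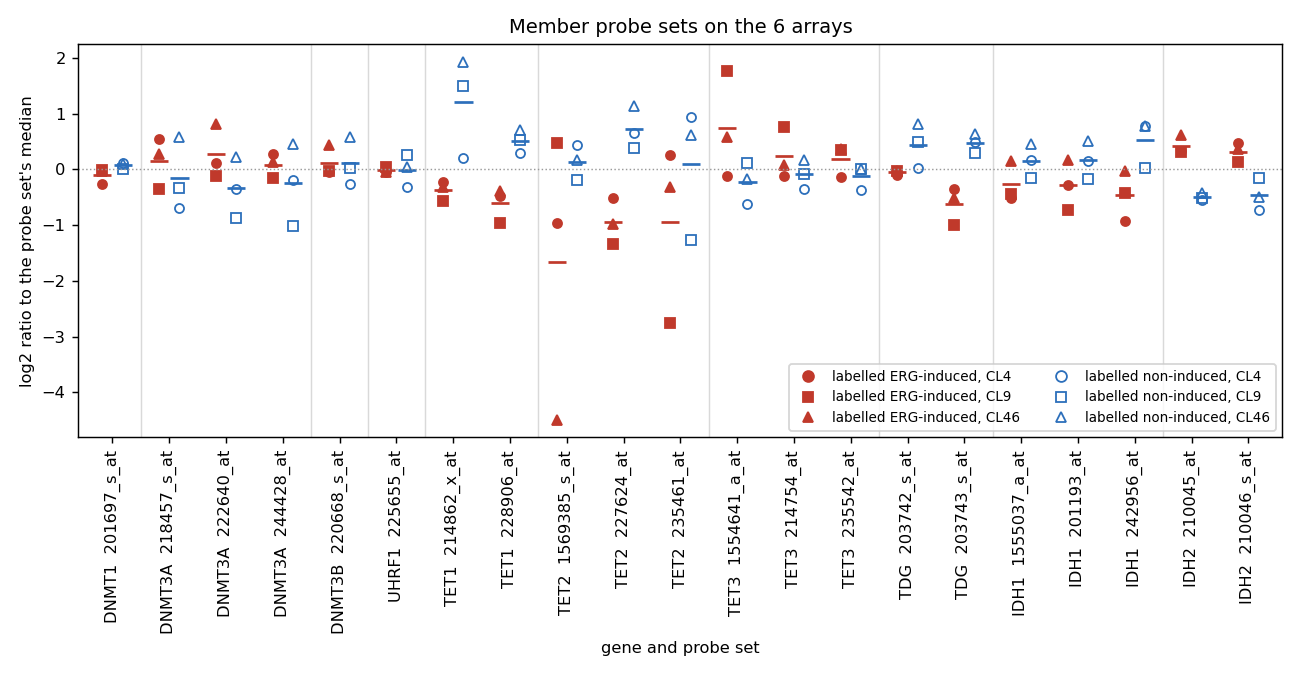
Log2 of the deposited ratio (vertical axis, 0 at the probe set's median over the 6 arrays) for each of the 21 member probe sets, with filled red symbols for arrays labelled ERG-induced, open blue symbols for arrays labelled non-induced, shapes for the clones and bars for the mean of 3 arrays. Both TET1 and both TDG probe sets, TET2 227624_at, IDH1 242956_at and, by a small margin, DNMT1 201697_s_at separate downward. Both IDH2 probe sets separate upward, and the lowest point is TET2 1569385_s_at in CL46 at -4.49.

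TET1, the founding member of the TET family, was lower in the arrays labelled ERG-induced with both of its probe sets. Probe set 228906_at read 0.721, 0.511 and 0.767 in CL4, CL9 and CL46 labelled ERG-induced, and 1.23, 1.45 and 1.64 in the same clones labelled non-induced. All 3 clones fell, CL9 the most, and the groups did not overlap. The log2 difference was -1.12 (SE 0.30), a fold of 2.18, with limma adjusted p = 0.241. Probe set 214862_x_at read 0.85, 0.677 and 0.808 labelled ERG-induced and 1.15, 2.82 and 3.81 labelled non-induced, in the same clone order. Here the arrays labelled ERG-induced lay close together and the spread came from the arrays labelled non-induced, where CL4 was far below CL9 and CL46. Its log2 difference was -1.58 (SE 0.51), a fold of 2.98, with limma adjusted p = 0.292, with clone values of -0.43 for CL4, -2.06 for CL9 and -2.24 for CL46. The ending _x_at marks a probe set with probes that can also match other sequences, while 228906_at carries no such mark. The call of 228906_at was lost with quantile normalization (-0.95), without CL9 (-0.93) and without CL46 (-1.14). That of 214862_x_at was lost without CL9 (-1.34) and without CL46 (-1.25).

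Over both probe sets TET1 averaged -0.49 ± 0.24 on the log2 scale in arrays labelled ERG-induced and 0.86 ± 0.55 in arrays labelled non-induced (SD, n = 3 each). The log2 difference of the gene was -1.35 (SE 0.36, limma adjusted p = 0.256), lower in 3 of 3 clones, at -0.60 in CL4, -1.78 in CL9 and -1.66 in CL46. This call was lost without CL9 (-1.13, adjusted p = 0.595) and without CL46 (-1.19, adjusted p = 0.598), and without CL4 the difference was -1.72.

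TET2, which in blood cells limits self-renewal of stem and progenitor cells, had the lowest log2 difference of the 10 genes as reported, but its 3 probe sets differed in how evenly it was seen. Probe set 227624_at read 0.695, 0.394 and 0.506 in CL4, CL9 and CL46 labelled ERG-induced, and 1.57, 1.3 and 2.21 labelled non-induced. Every clone fell and the groups were well apart. The log2 difference was -1.67 (SE 0.36), a fold of 3.19, with limma adjusted p = 0.195, and by clone it was -1.17, -1.73 and -2.12. This was the member probe set with the smallest adjusted p, and it kept its call when any 1 clone was left out. Of all probe sets tested, 7.62% had a lower log2 difference.

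The other TET2 probe sets were not called. Probe set 235461_at read 1.2, 0.149 and 0.801 labelled ERG-induced, and 1.92, 0.417 and 1.54 labelled non-induced. Each clone was below its own counterpart, with log2 differences of -0.68 (CL4), -1.49 (CL9) and -0.94 (CL46), but the groups overlapped, since CL9 was low with and without DOX. Its log2 difference was -1.04 (SE 1.00, limma adjusted p = 0.716), and it was called lower when the clone entered the fit as a block, with adjusted p = 0.371. Probe set 1569385_s_at read 0.516, 1.39 and 0.0444 labelled ERG-induced, and 1.36, 0.878 and 1.12 labelled non-induced. CL9 was higher and CL46 was far lower than its counterpart, so the groups overlapped and the log2 difference of -1.80 had an SE of 1.28 (limma adjusted p = 0.619).

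As a gene TET2 averaged -1.18 ± 0.76 on the log2 scale in arrays labelled ERG-induced and 0.32 ± 0.59 in arrays labelled non-induced (SD, n = 3 each). The log2 difference was -1.50 (SE 0.51, limma adjusted p = 0.324), lower in 3 of 3 clones, at -1.08 in CL4, -0.85 in CL9 and -2.58 in CL46. CL46 decided the call: without it the difference was -0.97 (adjusted p = 0.687) and not called, while it was -1.71 without CL4 and -1.83 without CL9. With the ratios floored at 0.1, which acts on the value of 0.0444, the difference was -1.37 and still called.

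TET3, the TET enzyme that oxidizes the paternal genome in the fertilized egg, was not called with any probe set. Probe set 1554641_a_at read 0.918, 3.4 and 1.49 in CL4, CL9 and CL46 labelled ERG-induced, and 0.651, 1.08 and 0.891 labelled non-induced. All 3 clones were higher, CL9 the most, but CL4 labelled ERG-induced lay inside the range of the arrays labelled non-induced. The log2 difference was 0.96 (SE 0.55, limma adjusted p = 0.535), and those of 214754_at and 235542_at were 0.33 (SE 0.35) and 0.31 (SE 0.29). As a gene TET3 differed by 0.54 (SE 0.36, limma adjusted p = 0.599), at 0.32 in CL4, 0.95 in CL9 and 0.34 in CL46. A difference between TET3 and the other TET genes was not tested.

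TDG, the glycosylase that acts after the TET enzymes, was called with 1 of its 2 probe sets. Probe set 203743_s_at read 0.779, 0.5 and 0.699 in CL4, CL9 and CL46 labelled ERG-induced, and 1.42, 1.22 and 1.54 labelled non-induced. The 3 clones fell by similar amounts, 0.86, 1.29 and 1.14 on the log2 scale, and the groups did not overlap. The log2 difference was -1.10 (SE 0.30), a fold of 2.14, with limma adjusted p = 0.244. It stood close to the threshold: the call was lost when arrays were centred on their medians (-0.99) and with quantile normalization (-0.89), and also without CL46 (-1.07) and, with its value at the fold threshold, without CL9. Probe set 203742_s_at read 0.933, 0.985 and 0.989 labelled ERG-induced and 1.01, 1.4 and 1.76 labelled non-induced, with no overlap and a log2 difference of -0.49 (SE 0.31, limma adjusted p = 0.579). The gene averaged -0.34 ± 0.15 and 0.46 ± 0.24 on the log2 scale in arrays labelled ERG-induced and non-induced (SD, n = 3 each), a difference of -0.79 (SE 0.25, limma adjusted p = 0.309) that fell short of a fold of 2.

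**Figure D2:**
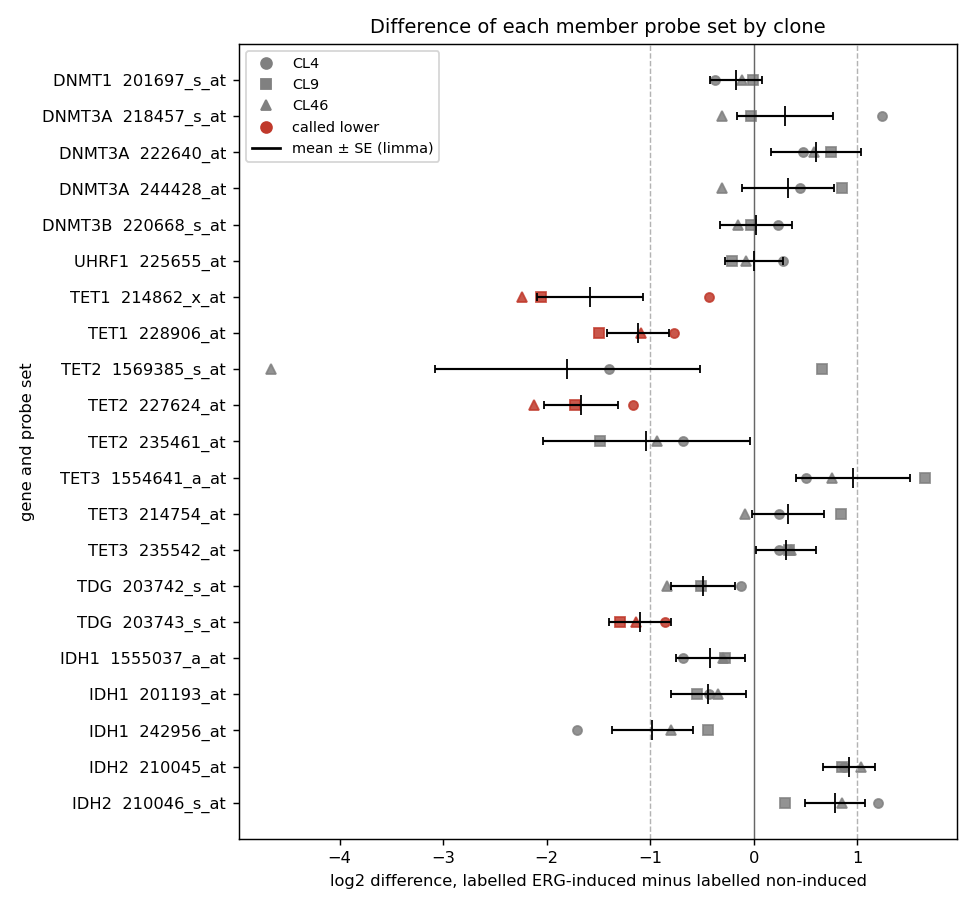
Log2 difference, arrays labelled ERG-induced minus arrays labelled non-induced (horizontal axis, dashed lines at a fold of 2), for the 21 member probe sets, with 1 symbol per clone, a tick and whiskers for the mean and its limma standard error, and red for probe sets called lower. The 4 red probe sets have all 3 clones below 0, while TET2 1569385_s_at spans -4.66 in CL46 to 0.66 in CL9.

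The writers showed no call. DNMT1, the maintenance methyltransferase, read 0.831, 0.995 and 0.985 in CL4, CL9 and CL46 labelled ERG-induced, and 1.08, 1 and 1.06 labelled non-induced (probe set 201697_s_at). The groups did not overlap, but by a small margin, and the log2 difference was -0.17 (SE 0.25, limma adjusted p = 0.825). UHRF1 (225655_at), which reads hemimethylated CpG sites, read 0.974, 1.04 and 0.972 labelled ERG-induced and 0.804, 1.2 and 1.03 labelled non-induced. Its clones went both ways around a log2 difference of -0.00 (SE 0.28, limma adjusted p = 0.998).

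DNMT3B (220668_s_at), a de novo methyltransferase, read 0.971, 0.989 and 1.35 labelled ERG-induced and 0.827, 1.01 and 1.5 labelled non-induced. CL46 was highest in both groups, and the log2 difference was 0.02 (SE 0.35, limma adjusted p = 0.99). DNMT3A, the other de novo enzyme, gave 3 log2 differences above 0, and none passed the test: 0.60 for 222640_at (SE 0.43, limma adjusted p = 0.623), 0.33 for 244428_at (SE 0.44) and 0.30 for 218457_s_at (SE 0.46). Probe set 222640_at read 1.08, 0.918 and 1.75 labelled ERG-induced, and 0.78, 0.549 and 1.17 labelled non-induced, higher in 3 of 3 clones with overlapping groups. The other 2 probe sets were lower in CL46 by 0.31 each. As a gene DNMT3A differed by 0.41 (SE 0.39, limma adjusted p = 0.721), and it ran from -0.02 in CL46 to 0.72 in CL4. With a standard error of 0.39, a modest change of DNMT3A in either direction was not detectable with these 6 arrays. The study names DNMT3A among the genes lower after ERG induction, with RT PCR plotted for CL9. In CL9 the arrays gave log2 differences of -0.03 for 218457_s_at, 0.74 for 222640_at and 0.85 for 244428_at. Why the 2 differ was not tested.

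The 2 isocitrate dehydrogenases differed in sign. IDH2, the mitochondrial enzyme, read 1.25, 1.25 and 1.53 in CL4, CL9 and CL46 labelled ERG-induced, and 0.684, 0.696 and 0.749 labelled non-induced with 210045_at. The arrays within a group were close together and the groups were well apart, with a log2 difference of 0.92 (SE 0.25, limma adjusted p = 0.247), a fold of 1.89. Probe set 210046_s_at read 1.38, 1.1 and 1.28 labelled ERG-induced and 0.603, 0.897 and 0.711 labelled non-induced, also without overlap, with a log2 difference of 0.78 (SE 0.29, limma adjusted p = 0.346). IDH2 as a gene averaged 0.37 ± 0.13 on the log2 scale in arrays labelled ERG-induced and -0.48 ± 0.15 in arrays labelled non-induced (SD, n = 3 each). The difference of 0.85 (SE 0.24, limma adjusted p = 0.265), at 1.04 in CL4, 0.57 in CL9 and 0.94 in CL46, missed a fold of 2. With quantile normalization it was 1.07 and called over-expressed, and 210045_at was called with centred arrays (1.02) and with quantile normalization (1.13).

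IDH1, the cytosolic enzyme, had 3 probe sets with log2 differences below 0 and no call. The nearest to the threshold was 242956_at, which read 0.525, 0.748 and 0.986 labelled ERG-induced and 1.71, 1.01 and 1.72 labelled non-induced. Its groups did not overlap, with a log2 difference of -0.98 (SE 0.39, limma adjusted p = 0.376), a fold of 1.97. Probe sets 201193_at (-0.44, SE 0.36) and 1555037_a_at (-0.42, SE 0.33) had overlapping groups with each clone below its own counterpart. The gene differed by -0.62 (SE 0.33, limma adjusted p = 0.495).

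**Figure D3:**
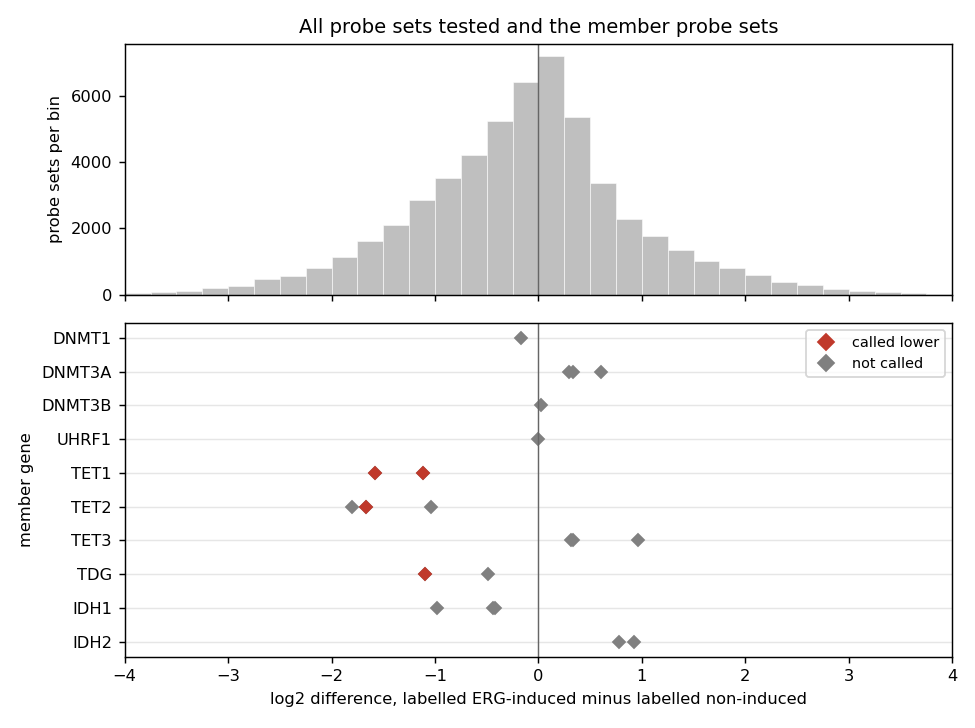
Number of probe sets per bin of log2 difference, arrays labelled ERG-induced minus arrays labelled non-induced, over the 54613 probe sets tested (upper panel, bins beyond the axis not drawn), and the 21 member probe sets on the same axis by gene (lower panel, red for called lower, grey for not called). The TET1, TET2 and TDG probe sets lie left of 0 and the DNMT3A, TET3 and IDH2 probe sets right of 0, all within the bulk of the upper panel.

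Differences of the size seen in the members were common on the whole array. Of all probe sets tested, 6.36% had a lower log2 difference than TET2 1569385_s_at, 8.73% than TET1 214862_x_at, 16.1% than TET1 228906_at and 16.7% than TDG 203743_s_at, and 86.5% had a lower one than IDH2 210045_at. The genes nearest to TET1 over the 6 arrays, by the root mean square of the log2 distance, were CLUAP1 (0.16), ZFAND6 (0.17) and SNX10 (0.18). Those nearest to TET2 were ZNF790-AS1 (0.22), LOX (0.25) and TMF1 (0.25). These 6 genes, chosen for likeness to a called gene, had log2 differences of -1.62 to -1.07.

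The replicate numbers are those of the clones, which pair the arrays. With the clone as a block, TET1 (adjusted p = 0.359) and TET2 (adjusted p = 0.368) kept their calls.

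**Figure D4:**
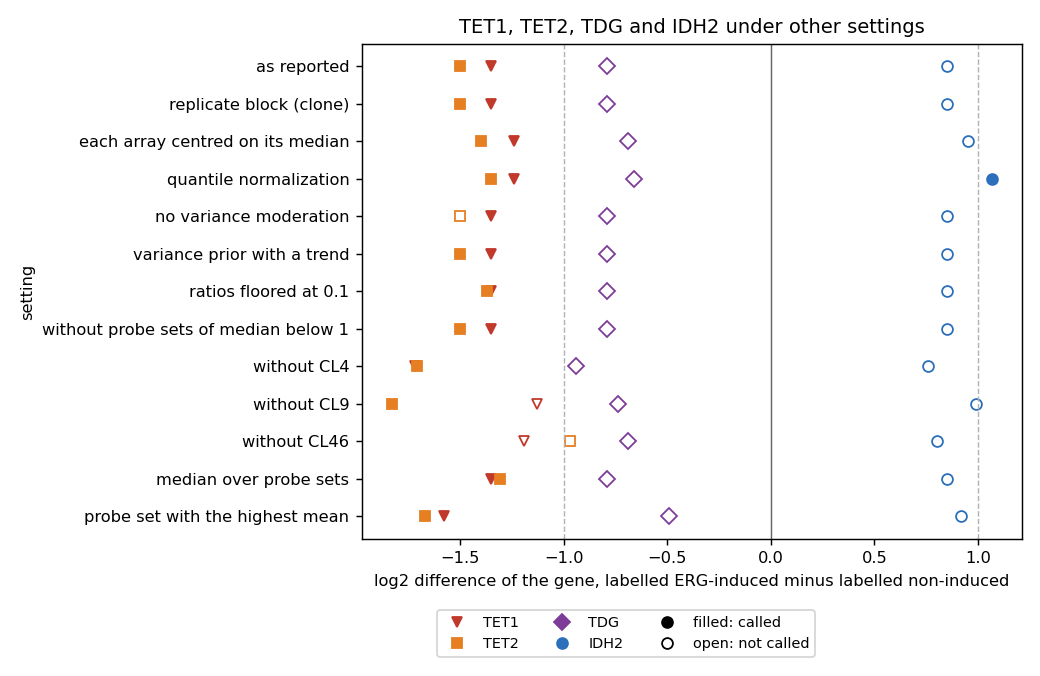
Log2 difference of TET1, TET2, TDG and IDH2 as genes, arrays labelled ERG-induced minus arrays labelled non-induced (horizontal axis, dashed lines at a fold of 2), under each way of processing (rows), with filled symbols where the gene was called and open symbols where it was not. No gene changes sign in any row, TET1 is open without CL9 and without CL46, TET2 is open without CL46 and without variance moderation, and IDH2 is filled only with quantile normalization, at 1.07.

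Around the members, the partners of the methyltransferases held 2 called genes among 11, both under-expressed, where 6.32% of all genes were. HELLS, a chromatin remodeller needed for DNA methylation at repeats, averaged -1.50 ± 0.49 on the log2 scale in arrays labelled ERG-induced and 0.49 ± 0.33 in arrays labelled non-induced (SD, n = 3 each), with a log2 difference of -1.99 (SE 0.36, limma adjusted p = 0.192) and 4 of 5 probe sets called. SETD2, the histone methyltransferase whose H3K36 mark DNMT3 enzymes read, differed by -1.34 (SE 0.27, limma adjusted p = 0.192), with 3 of 3 probe sets called and all clones between -1.52 and -1.22. PCNA, LIG1, CDCA7, USP7, EHMT2, SETDB1, TRIM28, NSD1 and DNMT3L were not called, and the list had a median of -0.03.

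Of 8 genes whose proteins read methylated CpG sites or belong to the families of such readers, 1 was called, where 6.32% of all genes were called lower. This was ZBTB33 (Kaiso), a zinc-finger repressor, which differed by -2.27 (SE 0.37, limma adjusted p = 0.192), and by clone by -2.54 (CL4), -2.80 (CL9) and -1.48 (CL46). The list had a median of -0.31, and MBD1, MBD2, MBD3 and MBD4 were not called. Of 6 partners and regulators of the TET enzymes, CXXC4, which binds TET2 and lowers its protein, was called lower (-1.23, SE 0.41, limma adjusted p = 0.323), although neither of its 2 probe sets was called alone. OGT and the GADD45 genes were not called, and the median was 0.16.

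Other base excision repair genes, which are further glycosylases and genes of later steps, held 0 calls among 9 genes (median 0.22). In limma 0 of them had an unadjusted p under 0.05. Their smallest adjusted p were those of SMUG1 (0.52, adjusted p = 0.424), POLB (-1.20, adjusted p = 0.654) and PARP1 (0.41, adjusted p = 0.656). SMUG1, a uracil glycosylase, owed its place to 1 of 3 probe sets, 234708_at, which was called higher (1.48, SE 0.28). The POLB value came from 234352_x_at (-2.29, SE 1.31) and 234907_x_at (-1.42, SE 1.73), while 203616_at was at 0.09 (SE 0.27). The other enzymes of 2-oxoglutarate and 2-hydroxyglutarate held 0 calls among 9 and 0 at an unadjusted p under 0.05 (median 0.16), with IDH3G at 0.94 (adjusted p = 0.649), SDHD at -0.31 (adjusted p = 0.677) and IDH3B at 0.24 (adjusted p = 0.72). By probe set IDH3G was at 1.57 (SE 1.47) with 214333_x_at and at 0.31 (SE 0.27) with 202471_s_at.

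The methionine and one-carbon cycle, which supplies the methyl donor S-adenosylmethionine, held 2 calls among 9 genes and a median of 0.60. Both calls were higher, where 3.12% of all genes were called higher. MAT2B, the regulatory subunit of methionine adenosyltransferase, differed by 1.58 (SE 0.51, limma adjusted p = 0.309), but by probe set it was 3.09 for 229284_at and 0.06 for 217993_s_at. SHMT1, the cytosolic serine hydroxymethyltransferase, differed by 2.31 (SE 0.86, limma adjusted p = 0.354) with overlapping groups, and it ranged by clone from 0.85 in CL9 to 4.35 in CL46. MAT2A, the catalytic subunit, was at -0.73 and MTR, methionine synthase, at -0.92, neither called.

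**Figure D5:**
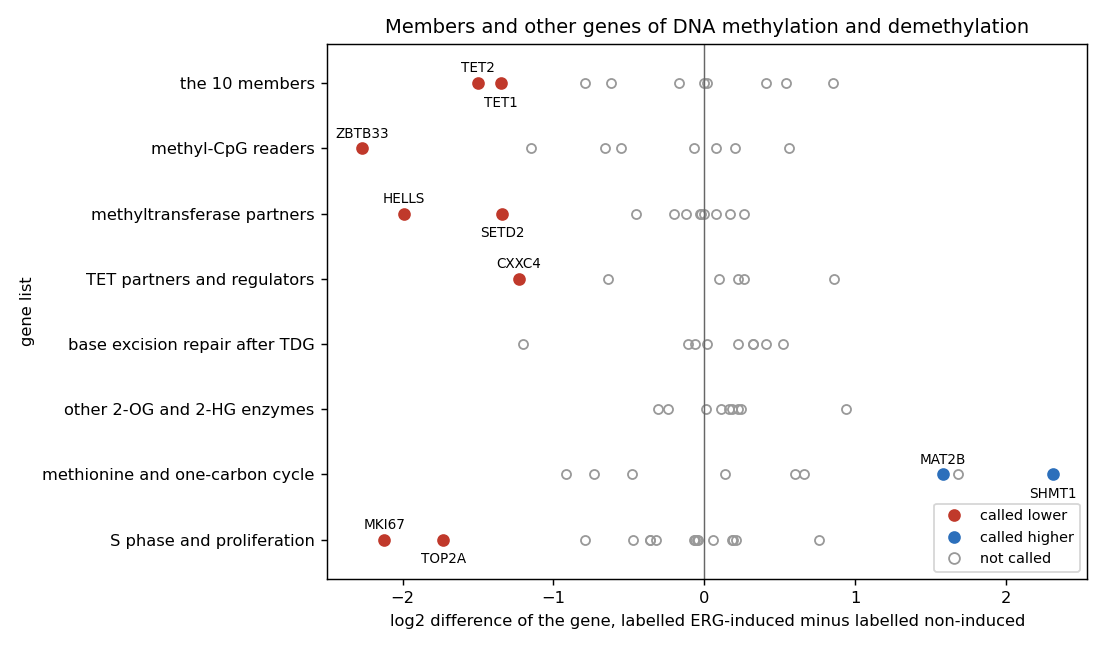
Log2 difference of each gene, arrays labelled ERG-induced minus arrays labelled non-induced (horizontal axis), for the 10 members and 7 lists of related genes (rows), with filled red for called lower, filled blue for called higher and open grey for not called. TET1, TET2, ZBTB33, HELLS, SETD2, CXXC4, MKI67 and TOP2A are the red genes and MAT2B and SHMT1 the blue ones, and all other genes of these rows are open.

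DNMT1 and UHRF1 rise with S phase in dividing cells, so proliferation genes were counted beside them. Of 16, MKI67 (-2.12, SE 0.45, limma adjusted p = 0.209, 4 of 4 probe sets called) and TOP2A (-1.73, SE 0.62, limma adjusted p = 0.343) were called lower and 0 higher. The shares over all genes were 6.32% lower and 3.12% higher. The other 14 were not called, among them MCM2, MCM3, MCM4, MCM5, MCM6 and MCM7, between -0.36 and 0.21, and the list had a median of -0.06. The part of cell division in the member values was not tested.

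Markers of blood lineages were counted beside all genes, of which 6.32% were called lower and 3.12% higher. Of 8 megakaryocyte markers, GP1BA (2.38, SE 0.49, limma adjusted p = 0.2) and ITGB3 (1.23, SE 0.41, limma adjusted p = 0.321), which encode platelet receptor subunits, were called higher, and the list had a median of 1.13. The other 6 were not called and ran from -0.31 (TUBB1) to 2.02 (PF4). Among the 7 probe sets of ITGB3, only 204627_s_at (3.14) and 216261_at (1.18) were called, and 211579_at was at -0.41. Of 7 erythroid markers, TFRC, the transferrin receptor, was called lower (-1.67, SE 0.32, limma adjusted p = 0.192), ALAS2, GATA1, KLF1, HBZ, HBE1 and EPB42 were not called, and the median was 0.23. Of 9 monocyte and granulocyte markers, AIF1 was called higher (1.84, SE 0.49, limma adjusted p = 0.256), with a median of 0.47. AIF1 was called with 209901_x_at (2.43), 213095_x_at (2.74) and 215051_x_at (2.85), while 207823_s_at was at -0.64 and not called. The ratios allow no summed level of a marker list and do not show which markers were absent, and the part of lineage in the fall of TET1 and TET2 was not tested.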

How the data were processed

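The authors hybridized total RNA of the K562 pTRE-ERG clones, 1 array per clone and condition, and made the values in GeneSpring 4.2. The deposited values are linear ratios, scaled so that a probe set has a median of 1 across arrays. This held, within 1e-05, for 50737 of 54675 probe sets including every member, and 3938 had a lower median. Background correction and array scaling, not given in the sources used here, and signal over background are unknown. Columns of unmapped samples numbered 0.

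The 62 control probe sets were left out. The platform annotation gave 41091 of the other 54613 a single symbol, 1801 more than 1 and 11721 no symbol. Ratios (0.00357 to 154) were turned to log2 without a floor. A gene (19775 in all) took the mean of its probe sets. The comparison used limma 3.58.1 under R 4.3.3 over all probe sets or all genes, two-sided, without a block or trend, with Benjamini-Hochberg adjustment. The study states a fold of 2 and p under 0.05 without naming the test. The script was tested on simulated data. Promoter windows came from the RefSeq table of GRCh38.p14, which holds windows for all 10 members.

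The members and the 12 gene lists were chosen with earlier results of these data known. Named are all members, ERG, the called genes of each list (up to 3 with the smallest p where over 3 or none were called) and the 3 genes nearest to each called member. Other genes of a list were named after their values were seen. Alternatives were the clone as a block, array centring, quantile normalization, no variance moderation, a variance trend, a floor of 0.1, only probe sets whose median was 1, a fold of 1.5, an adjusted p under 0.05, other ways to sum probe sets, and leaving out each clone. The pairing comes from the shared clone. After subtracting group means, both arrays of a clone correlated across genes at 0.04 (CL4), 0.05 (CL9) and 0.03 (CL46).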

Additional observations from a re-analysis of the deposited data

How the results depend on the processing

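No called member changed sign under any alternative run. Over the alternatives that kept the thresholds of fold and p, 198 probe set values stayed on their side of the thresholds, 9 lost a call and 3 gained one, and 115 gene values stayed, 4 lost a call and 1 gained one. Since 17 of the 21 member probe sets and 8 of the 10 member genes were not called as reported, most of these values had no call to lose. Member probe sets called lower, 4 as reported, numbered 3 with centred arrays and 2 with quantile normalization, where 6.96% and 6.38% of all probe sets were. They numbered 5 at a fold of 1.5 (IDH1 242956_at added, where 9.91% of all probe sets were called lower) and 0 at an adjusted p under 0.05. When 1 clone was left out they numbered 4 without CL4, 1 without CL9 and 1 without CL46. The shares of all probe sets called lower were then 7.66%, 6.63% and 5.71%. Member probe sets called higher, 0 as reported, numbered 1 with centred arrays, 1 with quantile normalization and 2 at a fold of 1.5. The shares of all probe sets called higher were 3.36%, 3.73% and 3.24%, in the same order. Member genes called lower, 2 as reported, numbered 1 without variance moderation, where TET2 was lost (-1.50, adjusted p = 0.383) and 4.75% of all genes were called lower. They numbered 3 at a fold of 1.5 (TDG added, where 8.85% of all genes were called lower) and 0 at an adjusted p under 0.05. When 1 clone was left out they numbered 2 without CL4, 1 without CL9 and 0 without CL46. The shares of all genes called lower were then 6.6%, 5.47% and 5.08%. Member genes called higher, 0 as reported, numbered 1 with quantile normalization and 1 at a fold of 1.5, IDH2 in both. The shares of all genes called higher were 4.29% and 3.96%. With the replicate block (clone), 5 member probe sets and 2 member genes were called lower, where 8.11% of all probe sets and 6.39% of all genes were. The added probe set was TET2 235461_at (-1.04, adjusted p = 0.371). The block changed no other call of a member. The cause of these changes was not tested, except that leaving out a clone leaves 2 arrays in each group.

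The precision is limited by 3 arrays a group. With standard errors of 0.23 to 0.51 for the member genes, changes under a fold of 2 could not be called by rule, and the lack of a call for the writers, TET3, IDH1 and IDH2 does not show that they were level. Signal over background is unknown, so whether a probe set was above background is not known. ERG itself was not higher in arrays labelled ERG-induced.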

Other observations

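Germline genes that DNA methylation keeps silent in somatic cells, and imprinted genes, whose parental alleles carry different methylation, were counted beside the members. Whether any of them was methylated or silent in these cells is not known here. Of 19 germline genes, 2 were called higher and 0 lower, where 3.12% and 6.32% of all genes were. Their median log2 difference was -0.05, where it was -0.03 over all genes. SYCE1, a component of the synaptonemal complex, averaged 0.30 ± 0.32 on the log2 scale in arrays labelled ERG-induced and -1.14 ± 0.45 in arrays labelled non-induced (SD, n = 3 each), a difference of 1.44 (SE 0.34, limma adjusted p = 0.23) carried by 1 of its 2 probe sets, 233084_s_at at 2.97 against -0.10 for the other. TDRD1, a Tudor-domain protein of the piRNA pathway, differed by 1.89 (SE 0.67, limma adjusted p = 0.338), with clone values of 2.29 for CL4, 3.32 for CL9 and 0.04 for CL46. The cancer-testis genes MAGEA1 (-0.14), MAGEA4 (-1.08), MAGEC1 (0.24) and MAGEC2 (0.99) were not called.

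Of 12 imprinted genes, 1 was called higher and 0 lower, where 3.12% and 6.32% of all genes were. CDKN1C, a cyclin-dependent kinase inhibitor expressed from the maternal allele, was called higher (1.24, SE 0.47, limma adjusted p = 0.362), with all 5 probe sets above 0 and 2 of them called. The other 11 were not called, among them PEG10 (-0.75), KCNQ1OT1 (-0.61) and DLK1 (0.63), whose groups did not overlap, and the list had a median of 0.05. H19, IGF2 and STRA8 were not analysed here. DNA methylation was not measured in these samples.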
